A study of Trametes gibbosa with 15 samples.

Results

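The comparison described here sets Trametes (Lenzites) gibbosa, a white-rot fungus, after 5 days with poplar chips against the same fungus without wood. All libraries come from mycelium of strain CB-1. Its members are 6 of the 15 libraries of the series, 3 of day 5 and 3 of the control, chosen by their sample titles. The series also holds 3 libraries each of days 3, 7 and 11 with wood. All cultures stood for 10 days at 25 °C in 70 ml of a low-nitrogen asparagine and succinate liquid medium with added glucose. The controls were harvested then, and the day 5 cultures were given chips of a hybrid poplar, Populus simonii × P. nigra (2 g in each bottle), for 5 days before harvest. Each group of 15 bottles served as 3 replicates that the labels call biological, and the labels used here do not say how bottles were divided among libraries. Every day 5 culture was thus also 5 days older than the controls, so age and wood cannot be told apart. Whole mycelium was extracted, so fewer cells using a gene and less RNA per cell cannot be told apart either.

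White-rot fungi are basidiomycetes that break down all 3 polymers of wood, lignin included. They secrete oxidases and peroxidases that open the lignin, and hydrolases and oxidative enzymes that cut cellulose and hemicellulose. The fungus takes up the released sugars and must also deal with phenolic breakdown products. Ligninolytic enzymes of such fungi are often studied in nitrogen-poor media like the one used here. The files used here give genes by identifier alone, so no enzyme family is named below and each gene is described by its level and its course over the days.

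Estimated counts totalled 35046269, 32472274 and 34114001 in control replicates 1, 2 and 3. In day 5 replicates 1 and 2 they totalled 34186316 and 48361622, and in the day 5 library whose count column has no replicate number (the unnumbered library) 43495646. The codes in the labels divide the libraries into 2 series. Control replicates 1 to 3 and day 5 replicate 1 are in the first, and the other day 5 libraries are in the second. Spearman correlations of counts across genes were 0.971 to 0.973 among controls, 0.967 to 0.978 among day 5 libraries and 0.949 to 0.955 between both groups. Day 5 replicate 1 gave 0.954 to 0.955 with the controls, and the second-series day 5 libraries gave 0.949 to 0.953.

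At day 5 with wood, 1138 of 11386 tested genes (9.99%) differed from the control. Of these, 422 were higher (3.71% of those tested) and 716 lower (6.29%). A gene was called at a Benjamini-Hochberg adjusted p under 0.05 in edgeR's quasi-likelihood test with a change of 2-fold or more, with library series as a term. Most changes were moderate. Among the higher genes 345 changed less than 4-fold, 77 changed 4-fold or more and 19 changed 16-fold or more, with a median log2 fold change of 1.33. Among the lower genes 503 changed less than 4-fold, 213 changed 4-fold or more and 41 changed 16-fold or more, with a median of -1.53. The CPM values (counts relative to TMM-scaled library size) of both groups did not overlap in 370 of the 422 higher and 656 of the 716 lower genes. Over all tested genes, day 5 lay wholly above the control in 19.9% and wholly below it in 19.0%. The fold changes are fitted with the series term, so mean CPM need not show them. Of the lower genes past 16-fold, gene_9618 fell only from a mean of 31.4 to 26.8 CPM (log2 fold change -7.49). The mean of gene_5937 rose from 10.7 to 14.9 CPM at a log2 fold change of -6.65. gene_217 was called lower (-1.63), though its second-series day 5 libraries, at 85.4 and 84.2 CPM, exceeded every control.

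**Figure D1:**
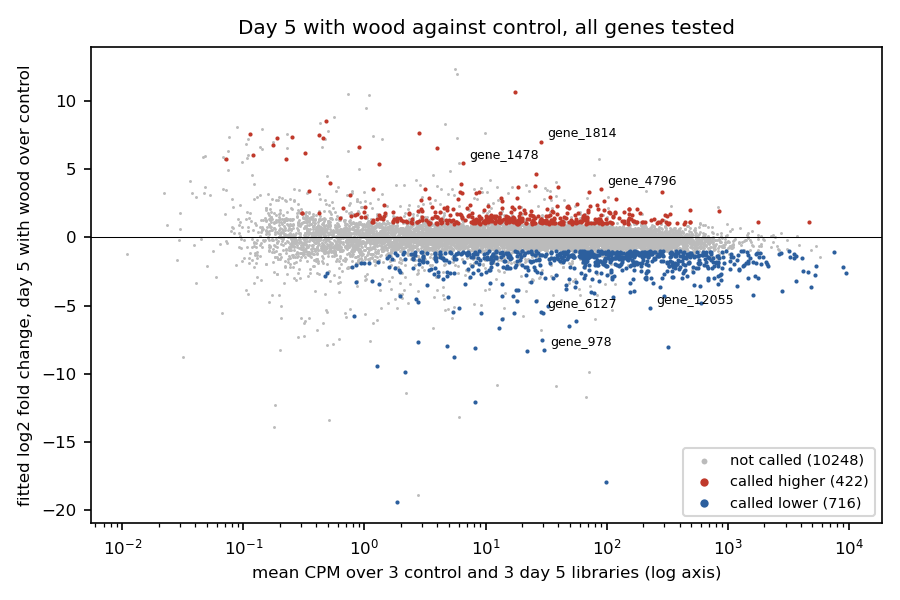
Each point is 1 of 11386 tested genes, with its mean CPM over the 6 libraries (x, log axis) against its fitted log2 fold change of day 5 with wood over control (y). At the highest levels the called genes are mostly among the 716 lower (blue) and few are among the 422 higher (red).

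The balance of higher and lower genes depended on the scaling. TMM scaling, the main scaling, puts the median log2 fold change of all tested genes at 0.01. Its factors were 0.7863 to 0.8083 in the controls and 1.03 to 1.078 at day 5. When counts were scaled by library totals alone that median was 0.44, and 1399 genes were higher and 376 lower, so that higher genes made up 78.8% of the calls in place of 37.1%. All 422 higher genes were called higher with both scalings. Of the 716 lower genes, 372 were called lower with both, and all 716 had a fold change below 0 with both. None of the 1138 genes was called the other way. Library totals raise the log2 fold changes by similar amounts (their median from 0.01 to 0.44). Genes past the 2-fold limit were thus bound to keep their sign, so these counts do not test robustness.

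The genes that fell held a large part of the control transcriptome. The 716 lower genes took 30.7%, 29.6% and 29.7% of all counts in the 3 controls, and 11.5%, 12.1% and 11.7% in the day 5 libraries. The 422 higher genes took 1.20%, 1.36% and 1.39% in the controls and 4.49%, 3.82% and 3.88% at day 5. Both sets were chosen on these same libraries, so these shares describe their weight and test nothing. The 100 most abundant genes of each library, whichever they were, made up 26.5% ± 0.343 of the control counts and 17.8% ± 0.904 of those at day 5 (SD, n = 3). Every day 5 library was below every control, and the exact two-sided permutation p of 0.10 is the smallest that 3 against 3 allows.

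Lower genes made up a larger share of the most abundant genes. Ranked by mean FPKM over all 15 libraries, the top 100 genes held 30 lower and 3 higher genes at day 5. The share of lower genes was 16.8% in ranks 101 to 1000, 6.45% in ranks 1001 to 5000 and 4.34% below that. The share of higher genes stayed between 3.00% and 3.99% over these 4 classes. The median log2 fold change was -0.58 in the top 100, -0.31 in the next class and 0.04 in the other 2, relative to TMM scaling.

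Since all controls are in the first series, only day 5 replicate 1 can be set against them within a series. This library lay above all 3 controls in 422 of 422 higher genes and below all of them in 710 of 716 lower genes, beside 34.4% and 33.6% of all tested genes. It took part in the calls, so these counts are a description. Its median log2 ratio to the control mean, on the CPM + 0.5 scale, was 1.21 for the higher and -1.49 for the lower genes. The second-series libraries gave 1.1 and -1.50. In 16 higher and 11 lower genes the second-series mean lay on the other side of the control mean from the call. The series shift itself passed an adjusted p under 0.05 in 98 of the higher and 186 of the lower genes, beside 20.2% of all genes tested. Without the series term, 292 of the 422 and 563 of the 716 were still called. With the first series alone, where day 5 is 1 library assumed to vary like the controls, 79 genes were higher and 246 lower, and 60 and 205 of these were also called with all libraries.

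**Figure D2:**
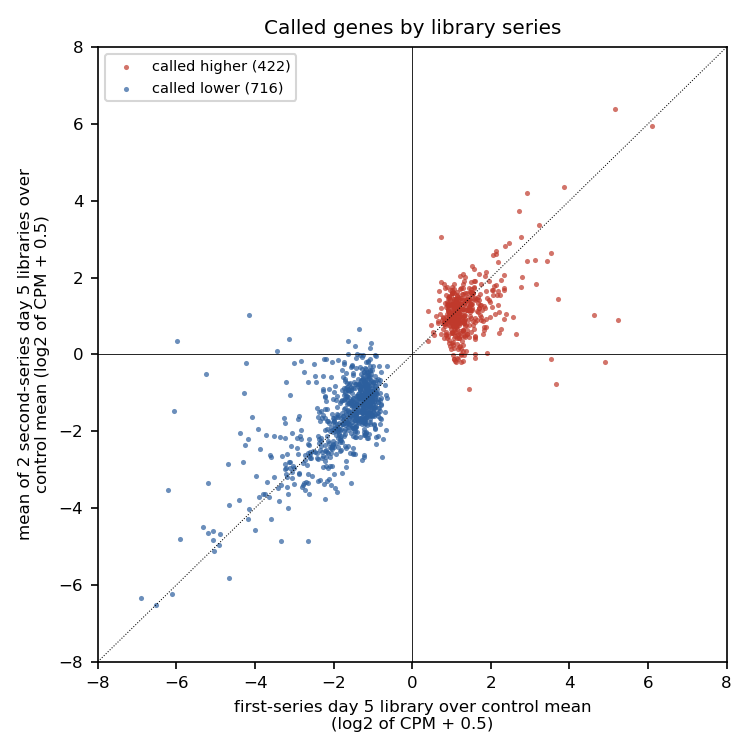
Each point is 1 of the 1138 called genes, with the log2 ratio to the control mean (CPM + 0.5) of day 5 replicate 1, which shares the controls' library series (x), against that of the mean of both second-series day 5 libraries (y). The dotted line marks equal ratios. Most points lie near it, and 16 higher (red) and 11 lower (blue) genes lie across the horizontal line at 0.

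The named risers were steady within both groups (a range of CPM + 0.5 under 4-fold), reached a mean of 10 CPM at day 5 and did not overlap with the control. Those with the largest fold changes went from near silence to moderate levels. gene_1814 stood at 0.542, 0 and 0.671 CPM in control replicates 1 to 3. At day 5 it stood at 61.7 and 57.0 CPM in replicates 1 and 2 and 53.3 CPM in the unnumbered library. These day 5 values were close together and far above every control (log2 fold change 7.02 with an SE of 1.1, taken from the F statistic; edgeR-adjusted p = 0.0012). Day 3 had been far more uneven, with 53.6, 155 and 12.6 CPM in its 3 replicates.

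gene_1478 rose from 0.108, 0.419 and 0.149 CPM to 10.0, 12.2 and 16.5 CPM (log2 fold change 5.46, SE 0.46, adjusted p = 2.3e-05). Without control replicate 2, the highest control, its log2 fold change was 6.23. gene_10316 rose from 0.217, 0.991 and 0.969 CPM to 11.0, 12.3 and 12.1 CPM, the tightest day 5 values of the 6 risers (log2 fold change 3.93, edgeR-adjusted p = 0.00017). Both genes were called higher at all 4 wood days.

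The other named risers were already detectable in the control. gene_4796 went from 21.7, 24.0 and 19.1 CPM to 237, 125 and 112 CPM (log2 fold change 3.57, SE 0.23, adjusted p = 4.2e-06). Its first-series day 5 library was the highest, and its series shift also passed the test (adjusted p = 0.0010). gene_7338 showed the same order, from 6.07, 6.4 and 3.39 CPM to 66.2, 38.3 and 33.3 CPM (log2 fold change 3.79, edgeR-adjusted p = 9.7e-05, series shift adjusted p = 0.018). gene_10052 went from 4.59, 4.53 and 2.16 CPM to 28.6, 52.3 and 18 CPM, with the highest value in the second series (log2 fold change 3.67, edgeR-adjusted p = 0.00071, and 4.37 as log2 fold change without day 5 replicate 1). All of these day 5 values lay above all controls. With library totals the 6 log2 fold changes were 4.00 to 7.46.

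**Figure D3:**
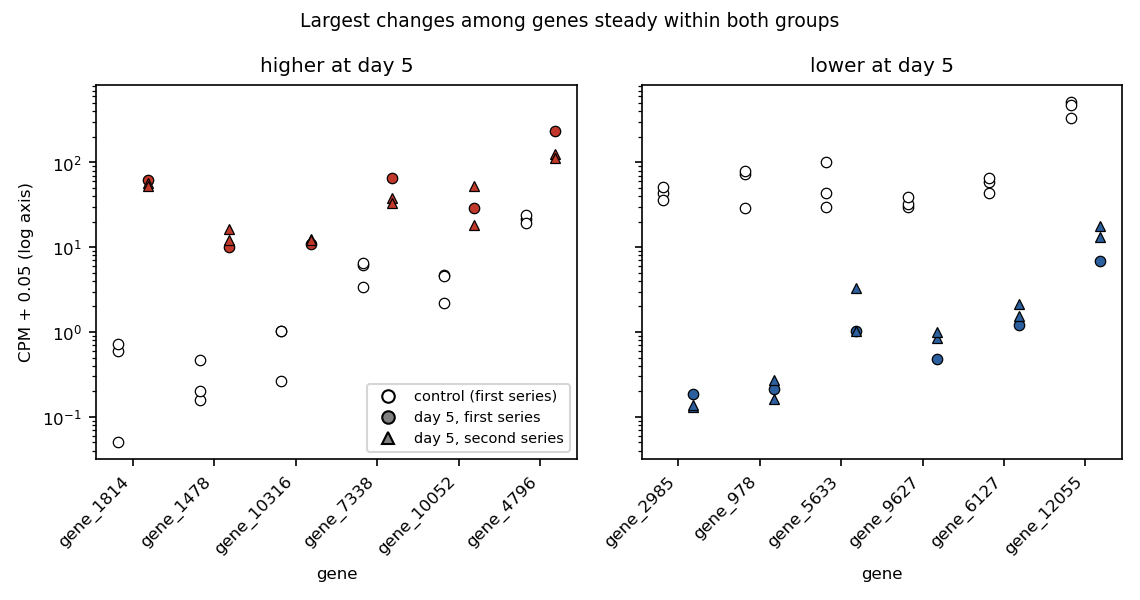
CPM + 0.05 (y, log axis) in each control library (open) and each day 5 library (filled) of the 6 higher and 6 lower genes with the largest fold change among those steady within both groups. Circles are first-series and triangles second-series libraries. In all 12 genes the day 5 values lie wholly apart from the control values.

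The named falling genes went from 28.6 CPM or more in every control to under 4 CPM in every day 5 library, except gene_12055, which kept 6.84 to 17.6 CPM. gene_2985 fell from 44.1, 51.9 and 35.6 CPM to 0.136, 0.0803 and 0.0877 CPM (log2 fold change -8.31, SE 0.24, adjusted p = 5.6e-09). Its day 5 libraries held 13 counts in all, and since low counts in these files are rounded estimates, the size of this fold is less certain than its direction. gene_978 fell from 73.6, 79.3 and 28.6 CPM to 0.163, 0.221 and 0.110 CPM (log2 fold change -8.27, SE 1.14, adjusted p = 0.00051). Control replicate 3 was the lowest control, and still far above all day 5 libraries. Without replicate 1 of day 3 or of day 7 its log2 fold change was -7.66 or -9.29.

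gene_12055 was the most abundant of these genes in the control, with 523, 476 and 336 CPM, and stood at 6.84, 17.6 and 13.2 CPM at day 5. It was deeper at day 5 (log2 fold change -5.20, edgeR-adjusted p = 0.00014) than at day 3 (-4.21), a difference that did not pass the test (edgeR-adjusted p = 0.61). Without day 5 replicate 1, the lowest library, it was -4.47. gene_6127 followed a like course, from 58.6, 43.2 and 65.0 CPM in the control to 1.17, 1.51 and 2.10 CPM at day 5, with 10.8, 6.99 and 4.32 CPM at day 11. gene_9627 fell from 29.8, 32.3 and 39.5 CPM to 0.434, 0.803 and 0.943 CPM (log2 fold change -5.53, edgeR-adjusted p = 0.0013, and -4.85 without day 5 replicate 1). gene_5633 had the most scattered controls, 30, 43.5 and 102 CPM, against 0.977, 0.984 and 3.27 CPM at day 5. Its call (log2 fold change -5.55, edgeR-adjusted p = 0.019) was lost without day 5 replicate 1 (adjusted p = 0.13), and single libraries moved the value between -6.41 (without day 7 replicate 1) and -4.90 (without control replicate 3), with -4.94 without day 3 replicate 1. A replicate block, which leaves out the unnumbered library, also ended the call. All 6 falling genes were lower at each of the 4 wood days.

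FPKM is relative to transcript length and so allows levels of genes to be compared. It was used without TMM scaling, so its ratios can differ from the fitted fold changes. The median log2 fold change of all tested genes was 0.32 in limma on log2(FPKM + 1) and 0.01 in the main fit. Ranked by difference in mean FPKM, which favors abundant genes, the largest rises came from genes already well expressed. gene_1736 went from 1188, 1225 and 1042 FPKM in the controls to 2923, 3017 and 3502 FPKM at day 5, which placed it above all other risers in FPKM gained. Its fitted log2 fold change in counts was 1.1 (SE 0.23, adjusted p = 0.0045) at day 5 after 1.46 at day 3, and at days 7 and 11 it was no longer called (0.86 and 0.46). Leaving out day 3 replicate 1 took the day 5 value to 0.93, short of 2-fold, and a replicate block also ended the call. gene_10061 went from 193, 247 and 455 FPKM to 954, 1117 and 999 FPKM (log2 fold change 1.14, edgeR-adjusted p = 0.023). Its call was lost without control replicate 1, control replicate 2 or day 5 replicate 1 (adjusted p = 0.060, 0.076 and 0.16). gene_11602 went from 146 ± 58.1 to 667 ± 229 FPKM and gene_7945 from 107 ± 46.7 to 581 ± 104 FPKM (SD, n = 3), with log2 fold changes in counts of 2.07 and 2.04 (edgeR-adjusted p = 0.0014 and 0.00095).

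The largest losses in FPKM were larger than the gains. gene_5621 went from 5686, 4865 and 5808 FPKM to 1101, 1074 and 1168 FPKM, a narrow band at day 5 (log2 fold change in counts -2.49, SE 0.41, adjusted p = 0.0012). gene_2336 fell from 5381 ± 312 to 1114 ± 379 FPKM (SD, n = 3; log2 fold change in counts -2.19, edgeR-adjusted p = 0.00027). In gene_6466 the mean was 3915 ± 531 FPKM before and 611 ± 204 FPKM at day 5 (-2.64, edgeR-adjusted p = 0.00028). In gene_2336 and gene_6466 day 5 replicate 1 was the highest of the 3 day 5 libraries, at 1532 and 845 FPKM. gene_2185 went from 5522, 4839 and 4472 FPKM to 2148, 1245 and 1180 FPKM without overlap, but its call was weak (log2 fold change -1.35, edgeR-adjusted p = 0.047). With library totals it was -0.92 and not called, and a replicate block ended the call as well. Of the 15 fits without 1 library each, 10 lost the call, namely those without each control, each day 5 library, replicates 1 and 3 of day 3 and replicates 2 and 3 of day 7 (adjusted p 0.053 to 0.29).

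Some called genes were at or near 0 in 1 of both groups. Of the 422 higher genes, 15 had 3 or fewer counts over the 3 controls and 11 of these had 0. Their day 5 levels were low, under a mean of 1 CPM in 11 of the 15. The following were chosen after their values were seen. Trametes_gibbosa_newGene_1030, with 0 control counts, held 25 counts in day 5 replicate 1 and 0 in both second-series day 5 libraries. gene_1523 was the most abundant, with 2 control counts against 676, 3730 and 568 counts (18.3, 74.9 and 12.5 CPM) at day 5, which is 2005 times the control rate (exact binomial 95% interval 555 to 16563, library totals). Day 5 replicate 2 alone carried most of these counts. The interval covers counting error only and not the spread among libraries. Day 11 replicate 2, also with wood, held 6 counts of this gene. gene_10359 had 0 control counts and 0.904 to 1.09 CPM at day 5, which makes it at least 34.1-fold higher against a floor of 3 counts over the group. It also had 0 counts in day 3 replicate 2, beside 54 and 60 in the other day 3 libraries. Of the 716 lower genes, 4 had 3 or fewer counts at day 5. Trametes_gibbosa_newGene_290 held 115, 77 and 106 counts in the controls and 0 in all 3 day 5 libraries (at least 123-fold lower), but also 0 in replicate 1 of days 3 and 7 and 250 and 212 in the other day 3 libraries.

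Newly assembled loci, transcribed regions that the authors added to the reference genes, were called in 26 of 616 tested at day 5 (4.22%), 13 higher and 13 lower. Reference genes were called in 10.3%. The median log2 fold change was 0.04 over the loci and 0.01 over all genes tested. Only 2 higher loci met the naming rule (a mean of 5 CPM in the higher group and no overlap). Trametes_gibbosa_newGene_644 (scaffold 1, 1019121 to 1023766, minus strand, 6 transcripts) rose from 12.8, 12 and 11 CPM to 39.3, 35.9 and 16.3 CPM (log2 fold change 1.80, edgeR-adjusted p = 0.0014). Its unnumbered day 5 library was the lowest, yet above all controls. Trametes_gibbosa_newGene_431 (scaffold 14, 650243 to 651549, plus strand, 1 transcript with 3 exons) went from 0.614, 0 and 1.08 CPM to 4.94, 5.94 and 8.05 CPM. Its call (log2 fold change 2.92, edgeR-adjusted p = 0.044) was lost in 10 of 15 fits without 1 library each, with adjusted p up to 0.22 (without day 5 replicate 1), and with a replicate block. These fits left out control replicate 1, day 3 replicate 2, replicates 2 and 3 of day 11, every day 5 library or every day 7 library, and without control replicates 2 and 3 the value was 2.32 and 3.77.

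Among falling loci, Trametes_gibbosa_newGene_1058 (scaffold 45, 131813 to 137587, plus strand) had the narrowest values. It stood at 197, 204 and 199 CPM in the controls and 70.8, 67.7 and 67.6 CPM at day 5 (log2 fold change -1.47, SE 0.20, adjusted p = 0.00042). The annotation gives it 65 transcripts, and 1 other new locus overlaps it on the opposite strand. No source used here states that counting used strand, so reads of both loci may not be told apart. Trametes_gibbosa_newGene_138 (scaffold 62, 131809 to 133334, plus strand) went down from 56.5 ± 6.97 to 21.0 ± 2.04 CPM, each the mean and SD of 3 libraries, a log2 fold change of -1.49 (edgeR-adjusted p = 0.00014). Trametes_gibbosa_newGene_645 (scaffold 22, 299655 to 301015, minus strand) fell from 12.9, 10.5 and 11.7 CPM to 1.14, 4.14 and 2.87 CPM (log2 fold change -2.33, edgeR-adjusted p = 0.0030, and -1.49 without day 5 replicate 1). The sources used here name no genome build for these coordinates.

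Of the genes called at day 5, 147 higher and 167 lower genes had not been called at day 3. These comparisons share the 3 controls, so the counts are a description. Most of these genes were already moving at day 3: 144 of the 147 and 163 of the 167 had a day 3 fold change of the same sign, and 129 and 143 of them reached 1.5-fold. Their median log2 fold change went from 0.91 at day 3 to 1.21 at day 5 for the higher genes and from -0.90 to -1.25 for the lower. Of the 147, 82 were called at days 7 and 11 as well and 19 at day 5 alone. Of the 167, 85 were called at both later days and 32 at day 5 alone. In the other direction, 106 higher and 112 lower genes of day 3 were no longer called at day 5. Tested directly, day 5 against day 3 called 0 of the 147 and 1 of the 167 (edgeR), with 33 and 57 at an unadjusted p under 0.05 in their direction. Over all genes tested, 0% were called higher and 0.0176% lower, and 3.5% and 4.44% had such an unadjusted p. Genes called at day 5 and not at day 3 are tilted toward their called direction by their choice. Their counts therefore cannot be weighed against these shares, and they are a description and support nothing.

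**Figure D4:**
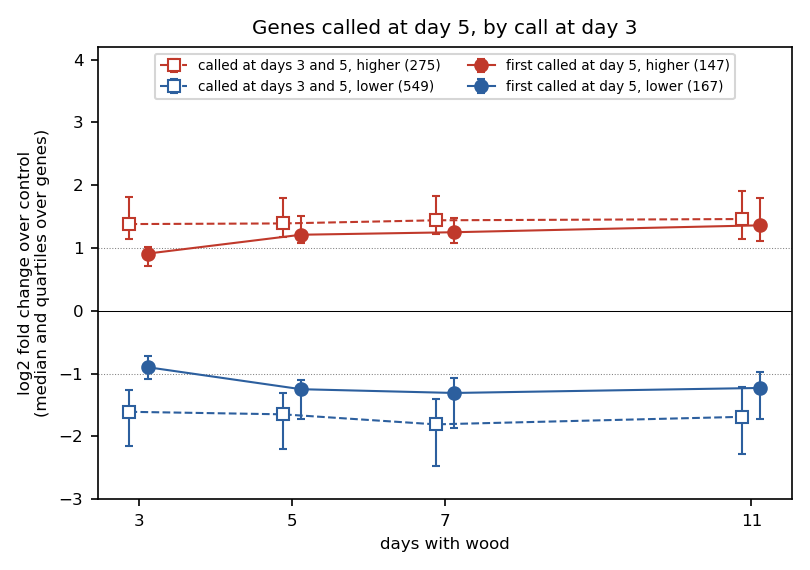
Log2 fold change over control (y; median over genes, bars from lower to upper quartile) by days with wood (x), for genes first called at day 5 (filled) and genes called at both days 3 and 5 (open), higher in red and lower in blue. Dotted lines mark 2-fold. Genes first called at day 5 had a median of 0.91 or -0.90 already at day 3.

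Among the named genes first called at day 5, gene_6148 stood at 3.54, 3.12 and 1.08 CPM in the controls, 9.38, 1.14 and 1.30 CPM at day 3 and 14.1, 11.3 and 5.53 CPM at day 5. Its log2 fold change over control went from 1.22 at day 3 to 3.23 at day 5 (edgeR-adjusted p = 0.0025) and 4.27 at day 11. The day 5 value was 3.97 without day 5 replicate 1, and the call was lost without the series term. Its series shift passed the test (edgeR-adjusted p = 0.012), and the fitted values rest on that term. Mean CPM changed less, from 2.58 in the controls to 10.3 at day 5, 11.6 at day 7 and 14.3 at day 11, which has no first-series library. gene_10025 went from 5.53, 4.42 and 5.96 CPM to 15.6, 17.9 and 8.88 CPM (log2 fold change 2.01, edgeR-adjusted p = 0.0030). Day 3 replicate 1 had already reached 13.6 CPM, while the other day 3 libraries held 4.54 and 4.23 CPM. gene_3168 rested on day 5 replicate 1, at 31.6 CPM beside 6.73 and 5.59 CPM in the others and 1.05 to 2.87 CPM in the controls. Without that library its log2 fold change went from 3.27 (edgeR-adjusted p = 0.011) to 1.88 (adjusted p = 0.23), and with a replicate block the call was lost.

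Falling genes of the same class included gene_2220, at 6.87, 71.6 and 21.8 CPM in the controls, 22.5, 58.6 and 41.2 CPM at day 3 and 1.93, 2.93 and 1.51 CPM at day 5. It was low in all libraries from day 5 on, between 1.69 and 6.68 CPM at days 7 and 11. Its day 5 log2 fold change of -3.86 (edgeR-adjusted p = 0.015) was -2.65 without control replicate 2, and without day 5 replicate 1 the adjusted p was 0.11. gene_1162 varied widely among controls, at 1729, 49.3 and 129 CPM, and stood at 4.8, 6.08 and 8.60 CPM at day 5. Its log2 fold change of -8.04 (edgeR-adjusted p = 0.023) was -5.19 without control replicate 1 and -10.25 without day 5 replicate 1. The call was lost in both fits (adjusted p = 0.069 and 0.066), and without either other day 5 library or day 7 replicate 1 (0.060 to 0.065). Without day 3 replicate 2, which held 839 CPM, it was -7.44 and still called. The calls of gene_2220 and gene_1162 were also lost with a replicate block.

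Day 5 held the largest change of the 4 wood days in 62 of the 422 higher and 105 of the 716 lower genes. The largest change fell at day 3 in 85 and 114 genes, at day 7 in 121 and 315, and at day 11 in 154 and 182. For the 62 the median log2 fold change was 1.15, 1.69, 1.33 and 1.40 at days 3, 5, 7 and 11, and for the 105 it was -1.21, -1.49, -1.28 and -1.14. The rule itself sets these medians apart. Over all genes tested, day 5 against the mean of days 3, 7 and 11 called 1 gene at an adjusted p under 0.05 with 2-fold (0.00878%; edgeR, 336 genes at an unadjusted p under 0.05), gene_4338.

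gene_4338 dipped at day 5 and nowhere else among the groups. It stood at 66.6, 54.6 and 51.1 CPM in the controls, 58.8, 61.0 and 60.2 CPM at day 3 and 22.1, 34.9 and 32.4 CPM at day 5. At day 7 it was back at 58.2, 67.8 and 73.6 CPM, and at day 11 it held 62.2, 64.2 and 68.9 CPM. The 3 day 5 values lay below all 12 others. The log2 difference from the mean of the other wood days was -1.08 (SE 0.11, adjusted p = 0.0088), and that from the control was -1.17 (edgeR-adjusted p = 0.00032). Its call against the control was lost with library totals (log2 fold change -0.74), without the series term and without day 5 replicate 1 (-0.93, adjusted p = 0.0074), the last by the 2-fold limit. Both limma fits on FPKM and the fit of the 6 libraries without a series term ended that call as well. The calls against day 3, day 7 and the mean of the other wood days were all lost without the series term and without day 5 replicate 1. For the one against their mean, the edgeR-adjusted p was up to 0.084 in the fits without 1 library. The calls against day 3, day 7 and that mean were lost with a replicate block too. In the second series alone, those against day 3 and against the mean were lost.

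gene_4778 showed a deeper dip. It held 643, 646 and 535 CPM in the controls, 485, 840 and 631 CPM at day 3 and 70.0, 93.7 and 78.8 CPM at day 5. At day 7 replicates 1 and 3 were at 706 and 696 CPM, but replicate 2 was at 94.6 CPM, just above the highest day 5 value. Day 11 held 529, 480 and 470 CPM. Against the control the log2 fold change was -2.90 (SE 0.68, adjusted p = 0.010; 0.090 without day 5 replicate 1, and not called with a replicate block). Against the mean of the other wood days the difference of -2.75 did not pass the test (adjusted p = 1.0, unadjusted p = 0.00031). gene_9576 held 121, 145 and 138 CPM at day 5, against 157 to 447 CPM in the other 12 libraries (log2 fold change against control -1.74, edgeR-adjusted p = 0.0060). Control replicate 2 and day 3 replicate 1, at 167 and 157 CPM, came close to the day 5 values.

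Of the 3 named rises that were largest at day 5, gene_5468 had the narrowest values. It rose from 19.1, 16.9 and 18.5 CPM in the controls to 42.1, 31.7 and 35.8 CPM at day 3 and 51.3, 43.9 and 47.3 CPM at day 5, and stayed at 38.4 to 49.4 CPM after that. Its log2 fold change over control was 1.54 (SE 0.11, adjusted p = 1.0e-05), only 0.19 above the mean of the other wood days. gene_10907 and gene_10051 were both highest in day 5 replicate 2, at 109 and 211 CPM. The other day 5 libraries held 25.1 and 14.7 CPM of gene_10907, beside 1.63 to 4.00 CPM in the controls. For gene_10051 they held 92.6 and 63.2 CPM, beside 14.4 to 25.1 CPM in the controls. Without replicate 2 the log2 fold change over control was 3.32 in place of 4.64 for gene_10907 and 2.54 in place of 3.30 for gene_10051, and both were still called. Without day 5 replicate 1 they were 5.72 and 4.21.

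**Figure D5:**
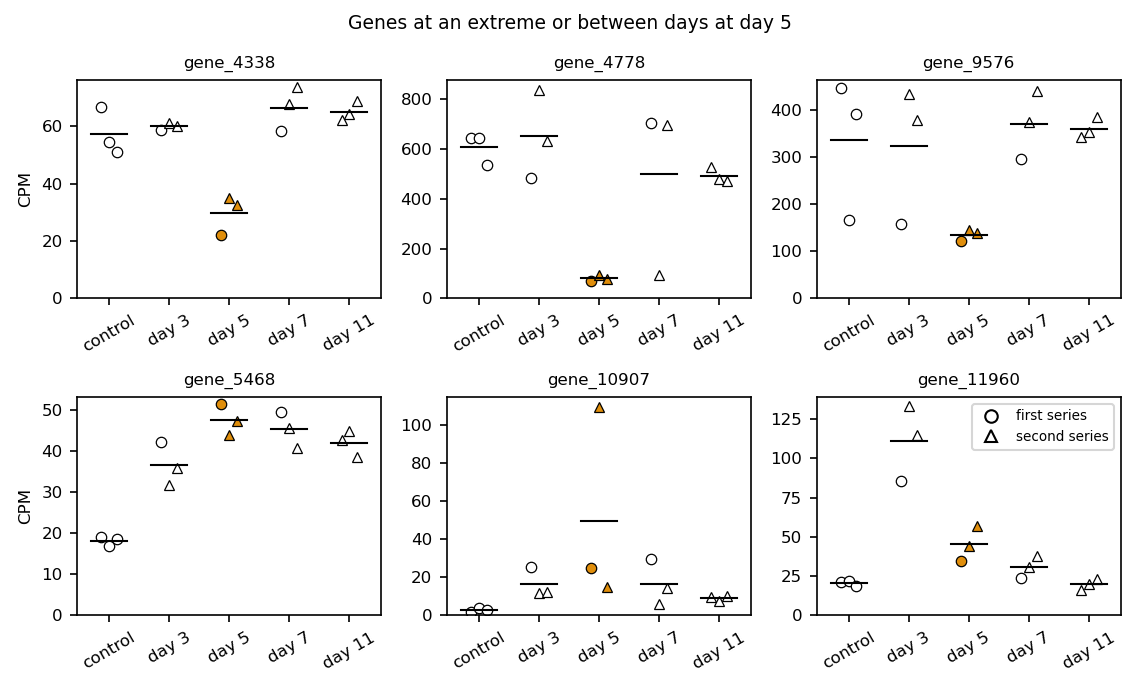
CPM (y, from 0) of 6 genes in all 15 libraries by group (x), with a bar at each group mean. Circles are first-series and triangles second-series libraries, and day 5 is filled. gene_4338 and gene_4778 fall at day 5, gene_10907 is high in 1 day 5 library, and the day 5 mean of gene_11960 lies between its day 3 and day 7 means, with single values of days 5 and 7 overlapping.

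The direct tests between wood days called few genes at day 5. Their contrasts leave out the controls, but the shared fit behind them includes the control libraries. Against day 3 they were 2 genes, both lower (0.0176% of those tested; 904 genes or 7.94% at an unadjusted p under 0.05). gene_11960 stood at 85.8, 133 and 115 CPM at day 3 and 34.6, 44.3 and 57.1 CPM at day 5 (log2 difference -1.30, SE 0.15, adjusted p = 0.028). At day 5 it was still above its controls of 21.6, 21.8 and 18.7 CPM, with a log2 fold change of 0.75 (edgeR-adjusted p = 0.0077), under the 2-fold limit. The other was gene_4338 (-1.03, adjusted p = 0.030), which was also the only gene called against day 7 (0.00878% of those tested; -1.17, adjusted p = 0.018; 533 genes at an unadjusted p under 0.05). Both calls of gene_4338 and that of gene_11960 were lost without either numbered day 5 library and without day 11 replicate 2. Of the 15 fits without 1 library, 11 lost the call of gene_4338 against day 3 (edgeR-adjusted p up to 0.26). Its call against day 7 was lost in 5 (up to 0.17), and the gene_11960 call in 6 (up to 0.26). The gene_11960 call was also lost without the series term and with a replicate block. Library totals and limma on FPKM also ended the gene_4338 call against day 3. With DESeq2, 61 genes differed between days 5 and 3 and 26 between days 5 and 7.

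Against day 11, which has no first-series library, 8 genes were called (0.0703%), 5 higher (0.0439%) and 3 lower (0.0263%) at day 5 (edgeR; 1202 genes at an unadjusted p under 0.05, and 107 called with DESeq2). gene_144 was on its way down, with 238 ± 87.1 CPM at day 3, 126 ± 40.4 CPM at day 5, 88.7 ± 24.7 CPM at day 7 and 32.4 ± 4.55 CPM at day 11 (SD, n = 3), beside 55.1 ± 18.2 CPM in the control. The log2 difference of day 5 from day 11 was 1.67 (edgeR-adjusted p = 0.020). gene_1820 fell in the same order, from 336 ± 79.9 CPM at day 3 through 177 ± 23.7 CPM at day 5 to 68.5 ± 10.1 CPM at day 11 (1.37, edgeR-adjusted p = 0.027), and at day 5 it did not differ from its control of 192 ± 17.8 CPM by the test (edgeR-adjusted p = 0.70). gene_10450 had a control mean of 181 CPM and lower means of 72.0 ± 27.5 CPM at day 3 and 94.7 ± 30.9 CPM at day 5. At day 11 it held 239 ± 62.7 CPM (-1.59, edgeR-adjusted p = 0.024). Its day 5 level differed by the test neither from the control nor from day 3 (edgeR-adjusted p = 0.1 and 0.67). Its series shift passed the test (adjusted p = 0.022). gene_9247 held 9.08 ± 0.931 CPM at day 3, 10.6 ± 2.37 CPM at day 5 and 40.5 ± 13.6 CPM at day 11 (-1.96, edgeR-adjusted p = 0.047). Its control mean was 14.2 CPM. Each of the 4 calls was lost in 5 to 12 of the 15 fits without 1 library. In each of the 4 they were lost without any one of the day 5 libraries and without day 3 replicate 2, and in gene_9247 also without any control. A replicate block ended all 4 calls. In the second series alone those of gene_1820, gene_9247 and gene_10450 were lost, and without the series term those of gene_144 and gene_10450.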

How the data were processed

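Per the labels' protocols, poly-A RNA of mycelium was sequenced as paired-end reads. HISAT2, StringTie, DESeq2 and DESeq 1.10.1 are named without roles in the submitters' processing notes. The sources used here name no genome build. The authors deposited estimated counts per gene, FPKM values (fragments relative to transcript length and library size) and coordinates of new loci. Counts came as whole numbers. In the 509 loci with 1 transcript, 96.5% of 4459 counts from 1 to 50 equalled a library constant times FPKM times length, rounded up, so these are rounded estimates. The unnumbered count column of day 5 matched the FPKM column titled as replicate 3 within 2% in all 29 loci with 100 or more counts, and both were used as 1 library. The 3 pairs of controls and 3 pairs of day 5 libraries each differed by more than sampling noise, with chi-square values of 108 to 333 for each degree of freedom.

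Counts were used as deposited in R 4.3.3 with edgeR 4.0.16. The 12885 genes (12038 reference genes, 847 loci) were filtered by filterByExpr to 11386, TMM-scaled and fitted with the robust quasi-likelihood option over all 15 libraries with group and series terms (9 residual degrees of freedom). Each SE is the size of the log2 fold change over the root of its F statistic. A fitted fold change need not equal the ratio of group means, because of the series term. Named genes were the called genes with no overlap and the largest change, in 5 classes described in the report, plus those called between wood days. Gene lists, members and rules were chosen with earlier results of these data known, and lists by product keyword could not be matched to identifiers. Alternatives used DESeq2 1.42.0, limma 3.58.1 on log2(FPKM + 1) and log2(FPKM + 0.1), other scalings, filters and designs, and left out each library. The fitting procedure was tested on simulated data, which held no series effect, so the series term was not checked by it. An exact permutation test (SciPy 1.17.1) compared the shares. Total counts were 32472274 to 48361622 in the 6 libraries compared. Intervals and floors cover counting error only.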

Additional observations from a re-analysis of the deposited data

Results flagged for a closer look

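Expression at day 5 differed from that at another wood day, tested directly, in few genes. Against day 3 there were 2 such genes, against day 7 there was 1, and against day 11 there were 8. Against the mean of days 3, 7 and 11 there was 1 (edgeR, adjusted p under 0.05 and 2-fold). The gene lower at day 5 than at days 3, 7 and 11 is the same in all 4 tests, gene_4338. Beside it and gene_11960, gene_144, gene_1820, gene_10450 and gene_9247, the 8 genes of day 11 include gene_217 and gene_3048, named here because the list is short. gene_217 held 21.4, 85.4 and 84.2 CPM at day 5, and its first-series library was also the lowest at days 3 and 7. gene_3048 held 6598 ± 2740 CPM at day 5 and 3686 ± 318 CPM at day 11 (SD, n = 3), with 3506 CPM in the first-series day 5 library. The fitted log2 difference from day 11 was 1.02 for gene_217 and 1.06 for gene_3048 (edgeR adjusted p = 0.028 and 0.047). In both genes the second-series day 5 libraries lay above all day 11 libraries, and the first-series one did not. Causes were not tested.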

How the results depend on the processing

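The count of 1138 genes at day 5 against control stayed within 1.5 times under DESeq2, size factors, upper-quartile factors, both filters, limma on log2(FPKM + 1), the fit without the series term, the replicate block and the 6 libraries without a series term. With library totals it was 1775 (1399 higher, 376 lower), with log2(FPKM + 0.1) 1776 (1380 and 396), with the 6 libraries and a series term 570 (198 and 372) and with the first series alone 325 (79 and 246). With log2(FPKM + 1) the split was 958 higher and 359 lower. Leaving out single libraries gave 837 to 1157 genes, 315 to 459 higher and 522 to 717 lower.

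Day 5 against day 3 gave 61 genes with DESeq2, 0 without the series term and 8 in the second series alone, and 0 to 6 without single libraries. Day 5 against day 7 gave 26, 0 and 4, and 0 to 4. Against day 11 the counts were 107 with DESeq2, 3 without the series term, 2 with the replicate block and 0 to 11 without single libraries. Against the mean of the other wood days they were 17, 0, 2 with the block, 2 in the second series alone and 0 to 3.

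Genes first called at day 5 numbered 621 with library totals and 198 to 492 without single libraries, 492 without day 3 replicate 1 and 198 without day 5 replicate 1. Genes largest at day 5 numbered 146 to 244. Called loci numbered 40 with DESeq2, 54 with library totals, 43 without the series term, 13 with the replicate block and 14 to 32 without single libraries, 14 without day 5 replicate 1. Day 5 minus control was -3.13 percentage points for the share of the top 10 genes and -9.55 for the top 1000, and -9.18 to -8.32 for the top 100 without single libraries.

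For named genes, 545 values kept their call, 100 lost it and 0 changed sign. The replicate block, which had to leave out the unnumbered library, gave 818 genes at day 5 against control (298 higher, 520 lower). The numbers were not taken to pair the samples: deviations of same-numbered control and day 5 libraries correlated by -0.0523 and -0.0190. Replicates 1 of days 3, 5 and 7, which share a number and also the first series, correlated by 0.232 to 0.423. The cause of these changes was not tested.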
